A study of Mus musculus with 6 samples.

Results

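The epithelial NADPH oxidases and the inducible nitric oxide synthase were followed in small intestinal organoids treated with MMK-1. Members were the rows of the deposited table whose symbol was Nox1, Noxo1, Noxa1, Cyba, Duox2, Duoxa2 or Nos2, and all 7 were found among 21397 genes. Organoids are three-dimensional cultures of crypt epithelium that hold stem cells and their differentiated progeny without the immune and connective tissue of the gut wall. All 6 libraries came from crypts of Fpr2f/f mice, in which the Fpr2 gene carries loxP sites and for which no Cre is named, so treated and vehicle organoids shared this allele. The Control group (n = 3) received 0.1% DMSO and the MMK-1 group (n = 3) received MMK-1, a peptide that activates FPR2, with RNA taken on day 5. The dose was taken as 1 μmol/L from the protocol text, whereas the MMK-1 samples carry a treatment label of 1 mM. The mice were 8 to 12 weeks old, and each sample pooled organoids of 3 mice. The study's general statement on statistics speaks of independent experiments, but none is tied to these libraries in particular, so p-values measure the spread between these libraries, which may be technical in part.

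NADPH oxidases pass electrons from NADPH across a membrane to oxygen. NOX1 forms superoxide and works only with the membrane partner p22phox (Cyba), the organiser NOXO1, the activator NOXA1 and the GTPase RAC1, whereas DUOX2 releases hydrogen peroxide at the apical surface and needs its maturation factor DUOXA2 to leave the endoplasmic reticulum. Nos2 encodes the inducible nitric oxide synthase, which converts arginine to nitric oxide with tetrahydrobiopterin as a cofactor. In the intestine DUOX2 and NOS2 are known as enzymes that the epithelium raises on contact with microbes, and NOX1 is best known from the colon.

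Duox2 and Duoxa2 lie head to head on chromosome 2, with RefSeq start sites 673 bases apart, and their flanking sequence is shown because the members of this pair gave different values with MMK-1. The Cyba promoter is shown because Cyba was the oxidase subunit that was called higher in every alternative tried. Each window runs from 250 bases before to 50 bases after the RefSeq start (GRCm38.p6), 5′ to 3′ on the strand of the gene. Capitals mark matches on either strand to TATAAA (the TATA box), GGGCGG (a GC box), CCAAT (the box of that name), TGANTCA (an AP-1 site) or TTCNNNGAA (a STAT site). The windows are chr2:122298178-122298477 on the minus strand for Duox2, chr2:122298650-122298949 on the plus strand for Duoxa2 and chr8:122432891-122433190 on the minus strand for Cyba.
Duox2: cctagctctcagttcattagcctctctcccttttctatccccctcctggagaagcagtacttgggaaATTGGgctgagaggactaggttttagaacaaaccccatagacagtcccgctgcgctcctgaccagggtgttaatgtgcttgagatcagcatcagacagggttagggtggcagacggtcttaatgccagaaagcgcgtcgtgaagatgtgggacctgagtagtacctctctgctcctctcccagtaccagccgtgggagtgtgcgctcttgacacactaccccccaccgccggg
Duoxa2: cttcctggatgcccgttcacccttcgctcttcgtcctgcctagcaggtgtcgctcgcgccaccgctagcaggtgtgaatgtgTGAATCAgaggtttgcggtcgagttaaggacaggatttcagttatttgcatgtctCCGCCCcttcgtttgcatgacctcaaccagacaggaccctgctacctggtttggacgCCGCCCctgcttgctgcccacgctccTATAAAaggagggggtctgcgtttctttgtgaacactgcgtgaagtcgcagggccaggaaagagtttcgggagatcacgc
Cyba: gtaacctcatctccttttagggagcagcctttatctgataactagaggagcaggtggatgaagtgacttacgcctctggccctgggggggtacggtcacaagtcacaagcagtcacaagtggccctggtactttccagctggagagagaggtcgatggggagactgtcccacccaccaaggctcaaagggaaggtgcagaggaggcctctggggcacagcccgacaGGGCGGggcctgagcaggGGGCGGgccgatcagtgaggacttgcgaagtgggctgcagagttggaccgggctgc
The Duox2 window held 1 CCAAT, on the opposite strand at position -183 from the start, and no other match. It did not overlap the Duoxa2 window. In the GENCODE M21 annotation the Duox2 gene reaches to position 122298449, so most of this window lies within the gene there. The Duoxa2 window held TATAAA at -30, GGGCGG on the opposite strand at -113 and -56, and the letters of an AP-1 site at -168. The Cyba window held GGGCGG at -24 and -6. Of 32851 mouse promoter windows of the same length, 13.6% held TATAAA, 35.7% held GGGCGG, 37.4% held CCAAT, 7.81% held TGANTCA and 8.3% held the STAT letters, which none of the 3 windows held. These matches describe the letters only. Sequences were found for 6 of the 7 members, and no entry was found for Nos2.

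Levels are given as FPKM, which correct the fragments on a gene for gene length and library size, so that levels of different genes can be compared per length. Library totals recovered from the values lay between 35512743 and 37537467 fragments. The first principal component of log2(FPKM + 1) held 92.4% of the variance and separated the groups. The second held 4.48% and set MMK-1 replicate 3, with a score of 13.0, apart from MMK-1 replicates 1 and 2, with scores of -6.73 and -5.5, so values without this library are given where they change a call. The groups were compared by limma-trend on log2(FPKM + 1) over 10551 genes whose mean FPKM reached 1, and fold changes on this scale understate those of low genes. Over all tested genes the median of this change was 0.13. All 8 epithelial markers were expressed at a mean FPKM of at least 1, while of 14 leukocyte markers 9 lay under 0.2 FPKM in all libraries. Ptprc, which defines leukocytes, lay at or below 0.0136 FPKM, and Adgre1, a macrophage marker, was listed at 0 in 5 of the 6 libraries. Other genes of that list were not near 0, with control means of 3.17 FPKM for Cd68, 2.36 for Itgam, 0.699 for Lyz2 and 0.659 for Cd14.

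MMK-1 went with a higher level of Nos2 and Cyba and with a slightly lower level of Noxo1. Duoxa2 and Nox1, both with few fragments, were higher in every MMK-1 library than in every control library, and Duox2 and Noxa1 did not pass the test. Of the 7 members 3 (Noxo1, Cyba and Nos2) had a mean FPKM of at least 1 and entered this test. Of these, 2 were higher and 1 was lower past an adjusted p of 0.05 (Benjamini-Hochberg), where 73.2% of all tested genes were called, 48.5% higher and 24.7% lower. At a fold change of at least 2 on the log2(FPKM + 1) scale, 0 of the 3 were called by limma-trend, against 7.04% of tested genes. By limma-voom on fragments, a scale without that constant, 1 of the 3 (Nos2) passed a fold change of 2, against 11.6% of the same genes. The 4 members under the filter took their values from a fit over all 20676 genes above 0, in which 4 of the 7 members were called, all of them higher (Nox1, Cyba, Duoxa2 and Nos2), against 43.3% of genes. The groups did not overlap in 5 of the 7 members, against 52.8% of genes. With so few members, nothing about them is read from these shares. With 3 libraries against 3 the exact two-sided permutation test of a single gene cannot give a p below 0.1, which was its value for each of these 5 members.

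**Figure D1:**
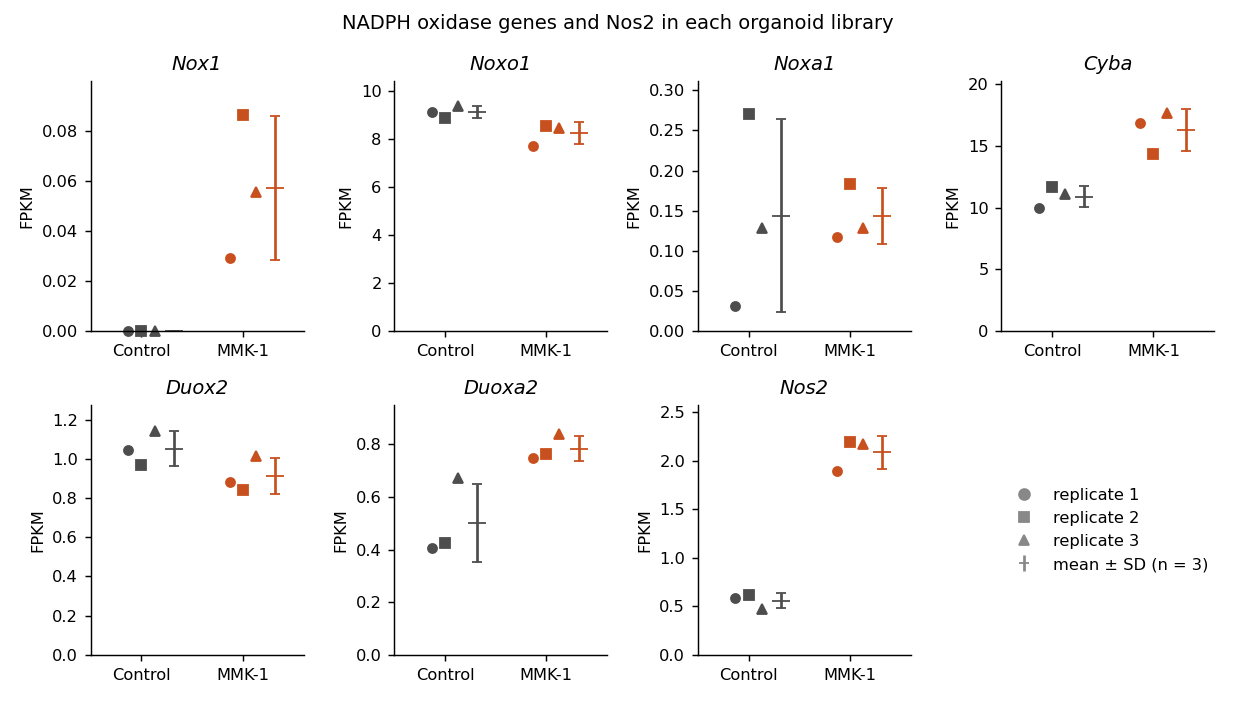
FPKM of each member in the 3 Control and 3 MMK-1 libraries, with marks for the replicates and the mean ± SD beside them. The MMK-1 libraries lie above all Control libraries in Nox1, Cyba, Duoxa2 and Nos2 and below them in Noxo1, whereas the groups overlap in Noxa1 and Duox2. The scales of the panels differ, and Nox1 stays under 0.1 FPKM.

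The order of levels in control organoids was Cyba at 10.9 ± 0.863 FPKM (SD, n = 3), Noxo1 at 9.14 ± 0.248, Duox2 at 1.05 ± 0.088, Nos2 at 0.559 ± 0.0766, Duoxa2 at 0.501 ± 0.148, Noxa1 at 0.144 ± 0.12 and Nox1 at 0. Of these neighbours only Nos2 and Duoxa2 overlapped across control libraries. With MMK-1 Nos2 stood above Duox2 in the order, and the lowest Duox2 value of 0.842 FPKM adjoined the highest Duoxa2 value of 0.84 FPKM.

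The catalytic subunit of the NOX1 complex was at the edge of detection. Nox1 (chrX:134086421-134221956, minus strand, GENCODE M21 on mm10, as for the members below) was listed at 0 FPKM in all 3 control libraries. It read 0.0291, 0.0864 and 0.0557 FPKM in MMK-1 replicates 1, 2 and 3, a mean of 0.0571 ± 0.0286 (SD, n = 3). The groups did not overlap, but the smallest whole numbers of fragments that give these values are 1, 3 and 2, and only multiples shared by all libraries are possible besides. No fold is given for so few fragments. In the fit over all genes above 0 the log2 difference was 0.08 (SE 0.0198) with a limma adjusted p of 0.021. The adjusted p rose to 0.074, 0.074 and 0.075 without Control replicate 1, 2 or 3 and to 0.065 without MMK-1 replicate 3. Of the Nox1 exon bases, 399 of 3307 are shared with the oppositely oriented Cstf2, which itself rose from 11.4 to 14.4 FPKM (log2 difference 0.32, adjusted p 0.00083).

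Cyba, the membrane partner p22phox that stabilises NOX1 and the other NOX enzymes of this type, rose. Cyba (chr8:122424776-122432930, minus strand) read 9.96, 11.7 and 11.1 FPKM in the control libraries and 16.8, 14.3 and 17.7 FPKM in the MMK-1 libraries. Every MMK-1 library lay above every control library, with MMK-1 replicate 2 the lowest of the treated. The mean rose from 10.9 ± 0.863 to 16.3 ± 1.73 FPKM (SD, n = 3 each), 1.49 times the control. The log2 fold change was 0.54 (SE 0.082, 95% interval 0.35 to 0.724, limma adjusted p 0.00036), and 1743 of the 10551 tested genes rose more. The values rested on 283 to 332 fragments in control libraries and 391 to 498 in MMK-1 libraries. Cyba shared no exon base with another annotated gene.

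Noxo1, the organiser that docks the NOX1 complex at the membrane, was abundant and changed little. Noxo1 (chr17:24696234-24700529, plus strand) read 9.12, 8.9 and 9.39 FPKM in the control libraries and 7.72, 8.57 and 8.47 FPKM in the MMK-1 libraries. The groups did not overlap, and MMK-1 replicate 1 was the lowest. The mean fell from 9.14 ± 0.248 to 8.25 ± 0.461 FPKM (SD, n = 3 each), 0.903 times the control. The log2 fold change was -0.13 (SE 0.052, 95% interval -0.251 to -0.0139, limma adjusted p 0.045), and the call was lost in 10 of the 14 alternatives, among them those without Control replicate 1, 2 or 3 (adjusted p 0.099, 0.069 and 0.14) and without MMK-1 replicate 1 (adjusted p 0.15). Most Noxo1 exon bases, 2122 of 3013, are also exon of Tbl3, a ribosome assembly factor on the opposite strand. Tbl3 rose from 18.6 ± 0.191 to 28.0 ± 1.93 FPKM (SD, n = 3 each, log2 fold change 0.56, adjusted p 1.9e-05), and whether the counting used the strand is not given in the sources used here. The part of this overlap in the Noxo1 value was not tested.

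Noxa1, the activator of the NOX1 complex, was low in both groups. Noxa1 (chr2:25085667-25095149, minus strand) read 0.0319, 0.271 and 0.128 FPKM in the control libraries and 0.118, 0.183 and 0.129 FPKM in the MMK-1 libraries. The control libraries held both the lowest and the highest value, and the groups overlapped (exact permutation p = 1.0). The log2 difference was 0.0044 (SE 0.0764, 95% interval -0.185 to 0.194, adjusted p 0.99), on 2 to 17 fragments a library. A difference was not detectable at this depth. Of the Noxa1 exon bases, 50 of 1617 are shared with the oppositely oriented Entpd8, which fell from 16.9 to 7.42 FPKM (log2 fold change -1.09, adjusted p 3.1e-07), and the part of this overlap in the Noxa1 value was not tested. The listed FPKM of Noxo1 exceeded that of its partner Noxa1 by at least 32.9 times per length in every library.

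The dual oxidase and its maturation factor gave different values. Duox2 (chr2:122279247-122298449, minus strand) read 1.05, 0.968 and 1.14 FPKM in the control libraries and 0.88, 0.842 and 1.01 FPKM in the MMK-1 libraries. MMK-1 replicate 3 lay within the control range, and the groups overlapped (exact permutation p = 0.2). The log2 difference was -0.10 (SE 0.0549, 95% interval -0.238 to 0.0337, adjusted p 0.20), and Duox2, with a mean of 0.982 FPKM, fell just outside the filter. It was not called in any of the 13 alternatives, on 184 to 260 fragments a library.

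Duoxa2 (chr2:122298900-122302885, plus strand) read 0.406, 0.426 and 0.672 FPKM in the control libraries and 0.75, 0.763 and 0.84 FPKM in the MMK-1 libraries. Control replicate 3 came close to the treated values, but no library overlapped. The mean rose from 0.501 ± 0.148 to 0.784 ± 0.0488 FPKM (SD, n = 3 each), 1.56 times the control. The log2 fold change in the fit over all genes above 0 was 0.25 (SE 0.0736, 95% interval 0.0707 to 0.436, limma adjusted p 0.036), on 20 to 33 fragments in control libraries and 35 to 41 in MMK-1 libraries. Without Control replicate 1 or 2 the adjusted p was 0.12 and 0.13, without MMK-1 replicate 1, 2 or 3 it was 0.09, 0.099 and 0.11, and only without Control replicate 3 was it lower, at 0.0037. Of the Duoxa2 exon bases, 682 of 1592 are shared with Duoxa1 on the opposite strand, which was listed at 0 in 5 libraries and at 0.0173 FPKM in MMK-1 replicate 2.

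The ratio of Duoxa2 to Duox2, a comparison chosen after the values were seen, was 0.389, 0.44 and 0.587 in control and 0.852, 0.905 and 0.829 in MMK-1 libraries. Each MMK-1 library lay above each control library. The mean ratio rose from 0.472 ± 0.103 to 0.862 ± 0.0393 (SD, n = 3 each), 1.83 times the control, with an exact permutation p of 0.1, the smallest possible. The FPKM values of Duox2 and Duoxa2, which are per gene and not per start site, were nearer to each other with MMK-1 than without.

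Nos2 showed the largest change among the 7 members on the log2(FPKM + 1) scale. Nos2 (chr11:78920787-78960254, plus strand) read 0.584, 0.62 and 0.473 FPKM in the control libraries and 1.89, 2.2 and 2.17 FPKM in the MMK-1 libraries. The lowest treated library stood well above the highest control library. The mean rose from 0.559 ± 0.0766 to 2.09 ± 0.167 FPKM (SD, n = 3 each), 3.73 times the control. On the log2(FPKM + 1) scale the fold change was 0.985 (SE 0.0697, 95% interval 0.826 to 1.14, limma adjusted p 3.2e-06), just under a doubling, and 379 of the 10551 tested genes rose more. With limma-voom on the recovered fragments, over genes with at least 10 fragments, which uses no added constant of this size, the log2 fold change of Nos2 was 1.90 (SE 0.156, adjusted p 7e-07). The values rested on 76 to 100 fragments in control libraries and 289 to 346 in MMK-1 libraries, and no annotated gene overlaps Nos2.

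**Figure D2:**
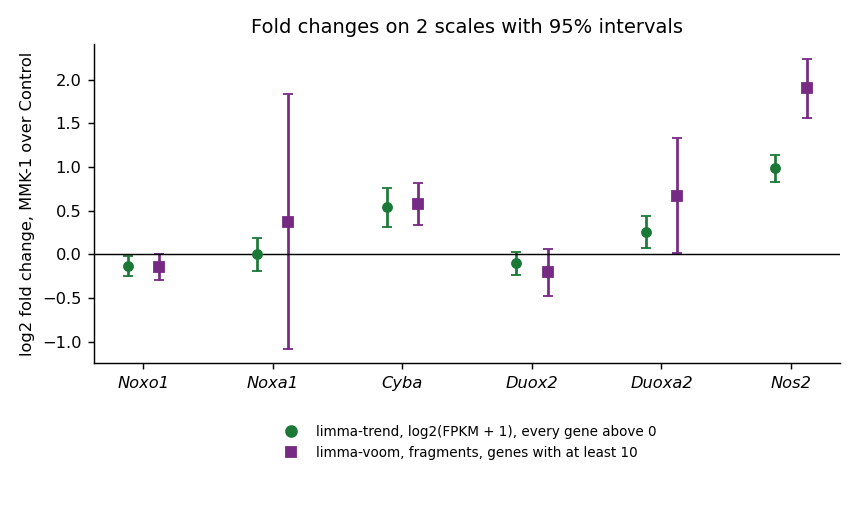
Log2 fold change of MMK-1 over Control for 6 members under limma-trend on log2(FPKM + 1) over every gene above 0 (circles) and under limma-voom on fragments of genes with at least 10 (squares), with 95% intervals. Nos2 moves from 0.985 to 1.90 between scales, Cyba stays near 0.54 to 0.58, and the interval of Noxa1 on fragments spans -1.08 to 1.83. Nox1 is left out because its fragments are known only up to a common factor.

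Of the other catalytic subunits and their partners, few were expressed. Cybb, the catalytic subunit of phagocytes, averaged 0.0037 FPKM in control and 0.0116 FPKM in MMK-1 libraries (adjusted p 0.28), and Nox4, a constitutively active oxidase, averaged 0.0341 and 0.00877 FPKM (adjusted p 0.08). Duox1 averaged 0.00144 and 0.00448 FPKM (adjusted p 0.64). The phagocyte organiser Ncf1 averaged 0.00645 and 0.0134 FPKM (adjusted p 0.51), and Ncf4 was listed at 0 in all control libraries and averaged 0.0104 FPKM with MMK-1 (adjusted p 0.22). Nox3 was not analysed here.

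Rac1, the GTPase of the NOX1 complex, was by far the most abundant of these genes and read 135.4 ± 0.828 and 137.7 ± 2.8 FPKM (SD, n = 3 each, log2 difference 0.02, adjusted p 0.56). Rac3, a related GTPase, rose from 3.39 ± 0.153 to 7.03 ± 0.676 FPKM (log2 fold change 0.87, limma adjusted p 6.2e-06). Sh3pxd2b, an adaptor related to the oxidase organisers, rose from 0.687 ± 0.0167 to 2.05 ± 0.254 FPKM (log2 fold change 0.85, adjusted p 1.1e-05). Of the 16 other oxidase subunits and maturation factors measured, 6 were tested, of which 4 rose, none fell and 2 (Rac1 and Cybc1) did not pass. The share of calls is near the 73.2% of all tested genes, and their median log2 fold change was 0.36 against 0.13 over all genes. Of the 10 under the filter, Rac2, the GTPase of blood cells, was lower (0.103 and 0.0453 FPKM, adjusted p 0.034) and Sh3pxd2a, a relative of Sh3pxd2b, was higher (0.181 and 0.306 FPKM, adjusted p 0.0035) in the fit over all genes above 0.

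**Figure D3:**
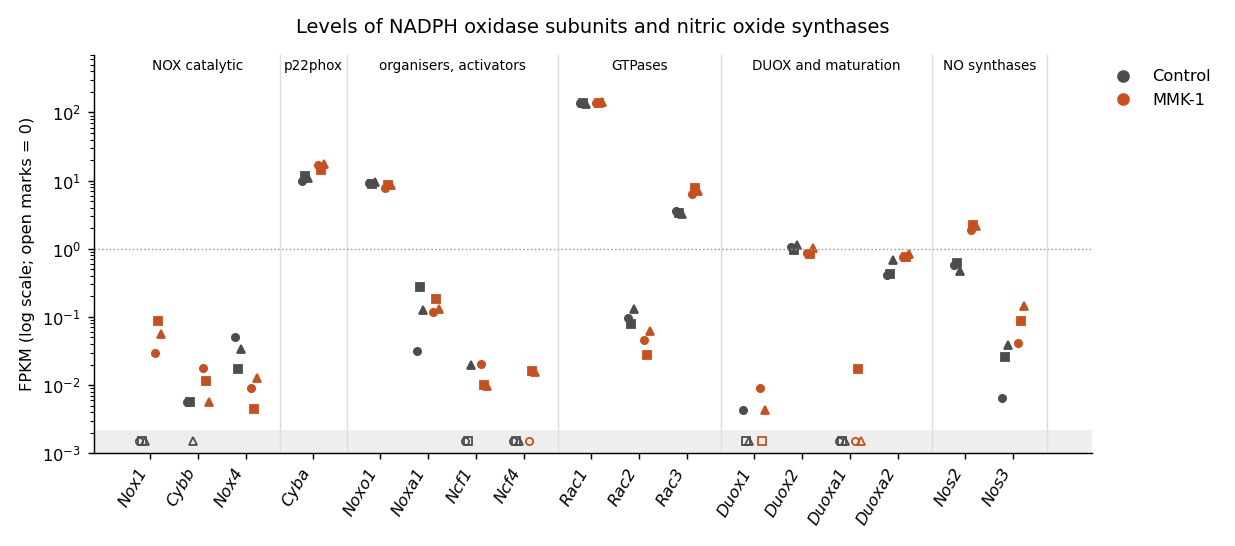
FPKM on a log scale for the NOX, DUOX and nitric oxide synthase genes, grouped by role, in the 3 Control and 3 MMK-1 libraries, with open marks in the grey band for values of 0 and a dotted line at 1 FPKM. Rac1, Cyba and Noxo1 have the highest means, while Nox1, Cybb, Nox4, Ncf1, Ncf4, Duox1 and Duoxa1 stay under 0.1 FPKM in all libraries.

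Genes that supply or consume the substrate and cofactor of NOS2 were examined next. Of 19 such genes measured, 15 were tested, of which 5 rose, 7 fell and 3 (Nosip, Pts and Spr) did not pass. The share of calls was near the 73.2% of all tested genes, of which 48.5% were higher and 24.7% lower. The median log2 fold change was -0.11. Gch1, the rate-limiting enzyme of tetrahydrobiopterin synthesis, read 5.28, 5.21 and 4.94 FPKM in the control libraries and 11.2, 10.5 and 11.8 FPKM in the MMK-1 libraries. The groups lay far apart, with a log2 fold change of 0.99 (SE 0.0543, limma adjusted p 7.2e-07). Gchfr, the feedback regulator that inhibits this enzyme, fell from 23.3 ± 2.04 to 10.1 ± 1.17 FPKM (SD, n = 3 each, log2 fold change -1.13, adjusted p 5.4e-06). The arginine importer Slc7a1 rose from 16.3 ± 0.125 to 23.0 ± 1.21 FPKM (log2 fold change 0.47, adjusted p 2.6e-05). Slc7a2, another arginine importer, and Ass1 and Asl, which rebuild arginine from citrulline, were the other genes that rose, by log2 0.45, 0.23 and 0.17.

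Nostrin, which traffics the endothelial synthase, fell from 32.8 ± 0.767 to 14.7 ± 0.637 FPKM (SD, n = 3 each, log2 fold change -1.10, limma adjusted p 1.4e-07). Slc7a7, which exports arginine across the basolateral membrane, fell from 47.7 ± 1.17 to 25.7 ± 0.933 FPKM (log2 fold change -0.87, adjusted p 4.1e-07). Ddah1, which degrades methylated arginines that inhibit the synthases, and Qdpr, which recycles the cofactor, also fell, by log2 fold changes of -0.81 and -0.48. Ddah2, a relative of Ddah1 under the filter, was higher in the fit over all genes above 0 (0.312 and 0.637 FPKM, adjusted p 0.00071). Nos3, the endothelial synthase, averaged 0.0236 and 0.0902 FPKM (adjusted p 0.092), and Nos1 was not analysed here.

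**Figure D4:**
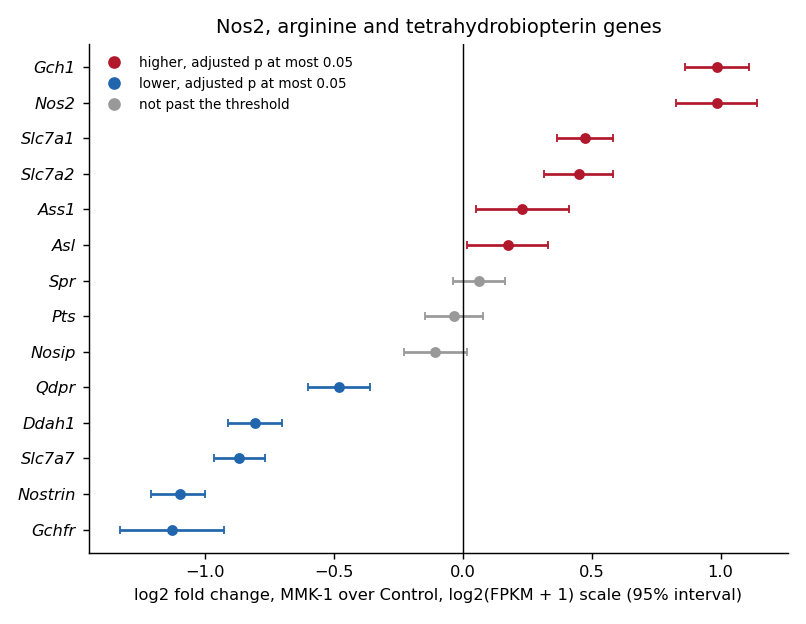
Log2 fold change of MMK-1 over Control on the log2(FPKM + 1) scale with 95% intervals for Nos2 and the genes of arginine and tetrahydrobiopterin supply reported here, ordered by size. Gch1 and Nos2 lead the genes that rose, and of those drawn Gchfr, at -1.13, is the farthest below 0. Grey points did not pass an adjusted p of 0.05.

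Of 18 tested enzymes that remove superoxide and peroxide 5 rose, 9 fell and 4 did not pass. The share of calls was again near the 73.2% of all tested genes, of which 48.5% were higher and 24.7% lower. Their median log2 fold change was -0.11. Prdx4, a peroxiredoxin of the endoplasmic reticulum, rose from 3.44 ± 0.188 to 7.31 ± 0.957 FPKM (log2 fold change 0.90, limma adjusted p 1.4e-05). Gpx2, the glutathione peroxidase of the gut epithelium, rose from 127.9 ± 9.05 to 239.0 ± 8.6 FPKM (log2 fold change 0.90, adjusted p 1.6e-06). Catalase (Cat) fell from 314.2 ± 8.06 to 125.4 ± 2.17 FPKM (log2 fold change -1.32, adjusted p 1.9e-08), and Srxn1, which repairs oxidised peroxiredoxins, fell by 0.727 on the log2 scale (adjusted p 1.4e-06). Of the 4 under the filter, Gpx3 was higher (0.121 and 0.313 FPKM, adjusted p 0.017) and Sod3 lower (0.144 and 0.0676 FPKM, adjusted p 0.00096) in the fit over all genes above 0.

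Receptors and factors known to act on Duox2 and Nos2 were called in 17 of 23 tested genes, near the 73.2% of all tested genes. Of the 23, 6 were higher and 11 lower, where 48.5% of all tested genes were higher and 24.7% lower. Their median log2 fold change was -0.13. Traf6, a signal adaptor of Toll-like and IL-17 receptors, rose from 5.39 ± 0.0407 to 8.56 ± 0.329 FPKM (log2 fold change 0.58, limma adjusted p 7.1e-06), and Nfkbia, an inhibitor and target of NF-κB, rose from 20.5 ± 0.475 to 29.5 ± 3.22 FPKM (log2 fold change 0.50, adjusted p 0.00023). Il10rb, a subunit of the IL-22 receptor, fell by 0.717 on the log2 scale (adjusted p 9.5e-07).

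Of 16 epithelial genes measured that are known to respond to microbes, IL-22 or IL-17, 7 were tested. Of these 6 fell, where 24.7% of all tested genes fell, and Lypd8 did not pass (adjusted p 0.79). Over the 7 the median was -1.03 on the log2 scale. Of the other 9, under the filter, Muc4, a membrane mucin, was higher with MMK-1 in the fit over all genes above 0 (0.341 and 1.21 FPKM, adjusted p 0.00027), and Fut2, a fucosyltransferase, was lower (1.02 and 0.198 FPKM, adjusted p 0.00042). Reg3b and Reg3a, antimicrobial lectins whose related genes may share reads, fell by 5.05 and 3.05 on the log2 scale (limma adjusted p 2.8e-10 and 7.8e-09). Reg3b dropped from 104.7 ± 6.84 to 2.19 ± 0.078 FPKM (SD, n = 3 each).

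Markers of the epithelial compartments moved with the groups. All 10 stem and cycling crypt markers were higher with MMK-1 (median log2 fold change 1.3), where 48.5% of all tested genes were higher. Their summed level was 227.0 FPKM in control libraries and 648.0 to 669.0 FPKM with MMK-1. Of 13 enterocyte markers 12 were lower and 1 was higher (median -0.96), where 24.7% of all tested genes were lower. Leukocyte markers moved beside Nos2 and Cyba as follows. Of 14 measured, 2 were tested (Cd68 and Itgam) and both fell, where 24.7% of all tested genes fell. The summed level of the list was 7.0 to 8.11 FPKM in control libraries and 3.7 to 5.05 FPKM with MMK-1. In the fit over all genes above 0, Csf1r was lower with MMK-1 (0.152 and 0.00703 FPKM, adjusted p 8.4e-05), while Cd14 was higher (0.659 and 1.28 FPKM, adjusted p 0.0085), as was Laptm5 (0.00737 and 0.038 FPKM, adjusted p 0.0078). The summed level of 8 mesenchymal and endothelial markers, all under the filter, was 1.26 to 1.41 FPKM in control libraries and 0.424 to 0.691 FPKM with MMK-1. Of these Pdgfrb, a receptor of stromal cells, was lower (1.097 and 0.265 FPKM, adjusted p 4.7e-05) and made up most of the control sum. The others did not move together. Col1a1 averaged 0.024 and 0.0526 FPKM (adjusted p 0.05) and Pdgfra 0.00193 and 0.00993 FPKM (adjusted p 0.26). Both were higher with MMK-1 without overlap, where the groups did not overlap in 52.8% of genes above 0. Of the 8 markers 6 lay under 0.2 FPKM in all libraries. The part of these shifts in the members' values was not tested, and in bulk RNA a change in the share of a cell type cannot be told apart from a change in RNA per cell.

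The tested genes whose pattern over the 6 libraries was most like that of each member were named by the smallest Euclidean distance in log2(FPKM + 1) after subtraction of the control mean. For Nos2 they were Top2a, a topoisomerase of dividing cells, Capn5 and Sorcs2, at distances of 0.0584, 0.0778 and 0.106. The added constant narrows the change of a low gene such as Nos2. In FPKM Nos2 rose 3.73 times and Top2a 2.01 times, so their likeness holds on this scale only. For Cyba they were Ccnd3, a D-type cyclin, Nrm and Pidd1, at 0.0782, 0.0983 and 0.108. For Noxo1 they were Cwc15, Chchd2 and Dus2, at 0.0291, 0.0501 and 0.0522. Among the gene ontology terms of the table, NADPH oxidase complex was shared by 5 of the 7 members, all but Duoxa2 and Nos2, and listed for 11 genes in all.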

How the data were processed

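RNA from 3 Control and 3 MMK-1 organoid samples was sequenced as 150-bp paired-end reads. The authors deposited FPKM values for 21397 genes, not scaled further as far as stated, and mm10, HISAT2, HTSeq, R 3.2.0 and DESeq2 are named in the submitters' processing notes without their roles. The steps, and with them the strand setting of the counting, could shift genes with overlapping exons. Groups were taken from the sample labels. Members, gene lists and tests were chosen with earlier results of these data known.

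Differences were tested with limma 3.58.1 in R 4.3.3 (limma-trend, pseudocount 1, no replicate block) over genes whose mean FPKM reached 1, with Benjamini-Hochberg adjustment over all genes tested. Members under that level took values from the same fit over every gene above 0. Genes named were the members, their enzyme partners, in each list the 2 called genes that changed most in either direction, and the 3 nearest genes of each tested member. Any other gene was picked once its values were known.

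Whole fragments and library totals, 35512743 to 37537467, were recovered from the steps of the FPKM values, and fragment numbers cover counting error only. Exons came from GENCODE M21 and promoters from RefSeq (GRCm38.p6), with matches for 6 members. Python 3.11.15, numpy 2.4.6, pandas 2.3.3, scipy 1.17.1 and matplotlib 3.10.9 were used. Both the fit and the recovery were tested on simulated data. Alternatives were upper-quartile scaling, a common sum of FPKM, a pseudocount of 0.1, no filter, limma-voom, a GC trend removed (span 0.3), a replicate block and leaving out each replicate. FPR family genes and some genes counted in the lists are not reported here singly.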

Additional observations from a re-analysis of the deposited data

How the results depend on the processing

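Nos2 and Cyba were called in the same direction in all 14 alternatives, with log2 fold changes of 0.94 to 1.90 and 0.46 to 0.62, and Duox2 was called in none of 13. The other members depended on the setting. Noxo1 kept its call under upper-quartile scaling (-0.206, adjusted p 0.0053) and with a pseudocount of 0.1 (-0.146, adjusted p 0.045). Noxo1 lost its call when libraries were rescaled to a common sum (-0.116), with limma-voom over all tested genes or over genes with at least 10 fragments (-0.15 in both, the latter chosen after seeing the data), without the GC trend (-0.0742) and without a filter on low values (-0.13), and lay between -0.157 and -0.0906 when a replicate was left out. Duoxa2 lost its call under upper-quartile scaling (0.22), a pseudocount of 0.1 (0.58) and limma-voom in both forms (0.67), and lay between 0.21 and 0.33 when a replicate was left out. Nox1 lost its call without the GC trend (0.0561) and lay between 0.0598 and 0.0989 when a replicate was left out, while its call held at 0.64 with a pseudocount of 0.1 and at 2.29 with limma-voom on the smallest whole fragments, values that depend on the constant added to control values of 0. Noxa1, never called, turned to -0.0054 under upper-quartile scaling and lay between -0.067 and 0.0831 when a replicate was left out. The cause of these losses was not tested. The count of members at a fold change of at least 2 was 1 (Nos2) in place of 0 after rescaling to a common sum, with a pseudocount of 0.1, with limma-voom in both forms and without the GC trend, and 0 to 1 when a replicate was left out.

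Same-numbered Control and MMK-1 libraries did not deviate together (correlations of 0.0253, -0.04 and 0.0279 over 10551 genes), so the numbers were not read as pairs. With a replicate block Noxo1 stayed at -0.13 but lost its call (adjusted p 0.069), and 5024 genes were higher and 2543 lower in place of 5118 and 2606. Upper-quartile scaling moved the median of all tested genes from 0.13 to 0.064. Noxa1 rested on 2 to 17 fragments a library and Duoxa2 on 20 to 41.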
